A study of Mus musculus with 2 samples.

Results

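The linker and core histone cluster genes were the 73 genes of 55357 in the deposited matrices whose symbols begin with H1f, H2ac, H2bc, H3c or H4c followed by a digit, together with H4f16. They comprise 12 linker H1 genes, 19 H2A, 17 H2B, 12 H3 and 13 H4 genes. The family was chosen by the levels of its members in these same 2 libraries, where they differed in an earlier look at the counts, so the differences between libraries given here describe the family and carry no test. Each genotype was represented by 1 single-cell library, made with the 10x Genomics 3′ version 2 chemistry from cortices of 5 to 6 pooled mice aged 8 weeks. One library came from wild-type mice and the other from mice without Msn, which encodes moesin, a protein that ties the plasma membrane to cortical actin. The knockout mice were C57BL/6. The sources used here name neither the sex of the mice, nor the wild-type strain, nor the deleted stretch of Msn. Cells were freed with papain, cleared on Percoll and sorted as positive for CD45 and CD11b, so that microglia came together with other myeloid cells. Since genotype and library coincide, a difference between them cannot be told apart from a difference between 2 pools, sorts or library preparations.

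Core histones H2A, H2B, H3 and H4 form the nucleosome, and linker histone H1 binds the DNA where it enters and leaves the nucleosome. Most genes of the family are transcribed in S phase from clusters on a few chromosomes, and their mRNAs classically end in a conserved stem-loop bound by the protein Slbp, without a poly(A) tail. Some of these genes also give polyadenylated transcripts in cells that have left the cycle. The linker histone genes H1f0 and H1f10 are expressed outside S phase. The 3′ chemistry primes on poly(A), so the counts report RNA that carries a poly(A) tail or an internal run of A, not total histone mRNA. Microglia of the adult cortex rarely divide.

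The stem-loop was searched in the GRCm39 genome, because it separates the members whose mRNA can end without a poly(A) tail from the others. A match to the stem-loop consensus began within 150 bases after the stop codon in 60 of the 70 members with an annotated stop codon (85.7%), against 33 of 21586 other protein-coding genes (0.153%). Capitals mark the paired arms of the stem and small letters the loop, in the 3 commonest forms:
H1f4, H1f2, H1f3, H2ac24, H2bc4 and 31 other members: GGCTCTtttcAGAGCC
H3c6 and 8 other members: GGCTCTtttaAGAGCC
H4c4, H4f16, H4c8 and 5 other members: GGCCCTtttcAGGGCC
In H1f4 (ENSMUSG00000051627, chromosome 13, 23804612 to 23806541, minus strand) the match lay at 23805765 to 23805780, and the annotated gene went on for 1153 bases past it. In H1f2 the annotation went on for 840 bases, in H1f3 for 4884 bases and in H2ac24 for 3 bases. In H2bc4 it went on for 9518 bases of the genome to the farthest annotated end. The main annotated H2bc4 transcript has 2 exons and is 1707 bases long. H1f0 (chromosome 15, 78912650 to 78914704) and H1f10 had no match. H2ac24, whose annotation ends almost at the stem-loop, holds a run of 12 A that begins 27 bases after its stop codon, before the stem-loop.

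The promoters of these linker genes are printed because H1f4, H1f2 and H1f3 had the lowest ratios among linker genes above the level limit given below. H1f0, also above that limit, was not lower. The windows run from 250 bases before to 50 bases after the start, as given by RefSeq on GRCm38.p6, and capitals mark CCAAT, the TATA box letters TATAAA, and the H1 box letters AAACACA, each searched on either strand:
H1f4, chr13:23622509-23622808, minus strand: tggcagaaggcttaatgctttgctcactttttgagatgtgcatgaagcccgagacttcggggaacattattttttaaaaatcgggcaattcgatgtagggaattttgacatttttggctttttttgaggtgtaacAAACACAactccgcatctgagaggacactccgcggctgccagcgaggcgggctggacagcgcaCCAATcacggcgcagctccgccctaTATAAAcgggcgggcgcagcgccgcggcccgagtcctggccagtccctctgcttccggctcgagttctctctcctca
H1f2, chr13:23738557-23738856, plus strand: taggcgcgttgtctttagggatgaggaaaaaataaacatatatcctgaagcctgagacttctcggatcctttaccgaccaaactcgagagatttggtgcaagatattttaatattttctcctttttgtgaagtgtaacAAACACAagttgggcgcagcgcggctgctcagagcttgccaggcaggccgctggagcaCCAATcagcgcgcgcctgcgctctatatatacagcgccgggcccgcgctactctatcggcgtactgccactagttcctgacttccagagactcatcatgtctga
H1f3, chr13:23554782-23555081, plus strand: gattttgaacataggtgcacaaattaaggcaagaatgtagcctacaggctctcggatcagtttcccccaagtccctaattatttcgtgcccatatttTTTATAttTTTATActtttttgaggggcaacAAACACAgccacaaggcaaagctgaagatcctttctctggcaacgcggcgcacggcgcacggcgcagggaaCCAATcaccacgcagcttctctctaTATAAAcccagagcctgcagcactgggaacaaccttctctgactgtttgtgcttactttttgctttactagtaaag
H1f0, chr15:79027962-79028261, plus strand: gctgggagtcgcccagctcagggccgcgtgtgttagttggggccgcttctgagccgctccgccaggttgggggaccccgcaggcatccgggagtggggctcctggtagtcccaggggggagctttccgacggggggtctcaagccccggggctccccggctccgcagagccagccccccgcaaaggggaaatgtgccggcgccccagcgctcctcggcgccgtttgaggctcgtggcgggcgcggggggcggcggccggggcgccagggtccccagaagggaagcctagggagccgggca
The H1 box and a CCAAT element are features of textbook H1 promoters. In H1f4, H1f2 and H1f3 the first base of CCAAT stood at −52, −54 and −51 relative to the start, and that of AAACACA at −115, −112 and −122. TATAAA stood at −27 in H1f4 and −26 in H1f3, with further reverse-strand matches at −153 and −145 in H1f3. The H1f0 window held none of the 3. Over the 64 windows of the 63 members found in the table, CCAAT occurred in 81.25%, TATAAA in 53.12% and AAACACA in 14.06%, against 37.41%, 13.62% and 7.184% of all 32851 windows. AAACACA occurred in 5 of the 10 linker H1 windows and in 4 of the 54 core histone windows. These are matches of letters and were not tested as sites.

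The wild-type library held 5842 barcodes with 68576464 UMIs (unique molecular identifiers) and the knockout library 9038 barcodes with 67575835 UMIs, and 13 barcodes occurred in both. Barcodes under 500 genes or above 10% mitochondrial UMIs were dropped. Microglia, gated by 2 or more P2ry12 UMIs, numbered 4759 in the wild-type library, at a median of 6890 UMIs, and 4696 in the knockout library, at 5684.5 UMIs. All 10 microglial markers were detected in both, with summed levels of 28034 and 28336 CPM (counts per mega-count of UMIs). Msn stood at 320.0 CPM in wild-type and 20.6 CPM in knockout microglia. Other values moved with the library. The median mitochondrial share was 1.41% and 0.468%, Neat1, a nuclear RNA, was 394 and 133 CPM, summed neutrophil markers were 19.5 and 185 CPM, and summed erythroid markers were 99.2 and 225 CPM, with all 5 markers of both lists detected in each library. Malat1, also a nuclear RNA, differed less than Neat1, at 35367 and 32160 CPM. The part of these values in the histone differences was not tested.

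Histone cluster RNA in microglia was lower in the knockout library, and linker H1 genes made up most of that difference. Summed over the 73 members it was 1531 CPM (1520 to 1541, exact 95% Poisson interval) in wild-type and 737 CPM (728 to 745) in knockout microglia. Linker H1 genes summed to 766 CPM (758 to 773) against 283 CPM (277 to 288), and core histone genes to 765 CPM (758 to 773) against 454 CPM (447 to 461). Linker H1 RNA thus held 50.02% of the family's UMIs in wild-type microglia and 38.4% in knockout microglia. The median log2 ratio of knockout over wild-type, over the 8711 genes that reached 10 CPM in either library, was −0.30, and ratios below are relative to that median unless the CPM scale is named. Relative to it, the log2 ratio was −0.76 for the family, −1.14 (−1.17 to −1.11, exact conditional interval) for linker H1 and −0.46 (−0.48 to −0.43) for core histones. Without H1f0 and H1f10, linker H1 summed to 712 against 225 CPM, a log2 ratio of −1.37. Among core classes, H3 (80.9 against 37.1 CPM, −0.83) and H2A (383 against 198 CPM, −0.66) were lower, H4 (140 against 86.8 CPM, −0.39) lay within 1.5-fold, and H2B was level (161 against 132 CPM, 0.01, and −0.29 on the CPM scale). Without H2bc4 the other 16 H2B genes summed to 57.4 and 26.7 CPM, −0.81. All intervals cover counting error only.

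Of the 73 members, 17 reached 10 CPM in at least 1 library. Relative to the median of all genes, 10 of the 17 were lower by 1.5-fold or more, none was higher and 7 lay within. Over all 8711 genes 12.2% were lower and 15.3% higher by this rule. On the CPM scale 13 of the 17 were lower and none higher, against 30.3% and 4.65% of all genes. At 2-fold 5 of the 17 were lower, against 2.65% of all genes. The median relative log2 ratio of the 17 was −0.65, where the median of all genes is 0 by construction. H3c1, H2ac20 and H4c8 reached 10 CPM in the wild-type library alone, so that they had to be lower in the knockout library. Just outside the 10 CPM limit were H4c3 (9.75 against 4.99 CPM) and H4c14 (8.05 against 2.96 CPM), and just inside it H3c1 (12.4 against 5.25 CPM) and H2ac20 (14.3 against 7.61 CPM). The counts are 3′ tags not divided by transcript length, so that levels are compared between libraries and not between genes.

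**Figure D1:**
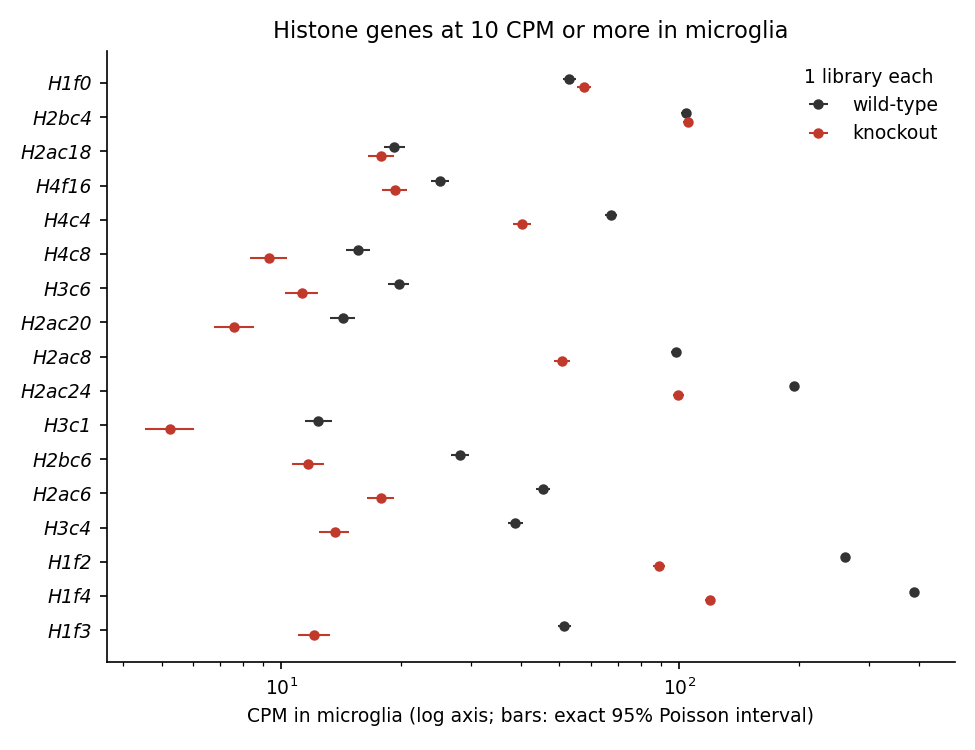
CPM (log axis) of the 17 histone members at 10 CPM or more in microglia of the wild-type (black) and knockout (red) library, 1 library each, with exact 95% Poisson intervals, ordered by ratio. H1f3, H1f4 and H1f2 at the bottom lie farthest apart, and H2bc4 (104 and 105 CPM) and H1f0 (52.9 and 57.6 CPM) at the top lie close together.

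The 3 replication-dependent linker genes that reached 10 CPM were all lower in the knockout library. H1f4, which encodes linker histone H1.4, was at 389 CPM in wild-type and 120 CPM in knockout microglia, 3.25-fold lower on the CPM scale and −1.41 as relative log2 ratio. H1f2 (H1.2, ENSMUSG00000036181) was at 262 and 89.1 CPM, a relative log2 ratio of −1.26. H1f3 (H1.3, ENSMUSG00000052565) was at 51.5 and 12.1 CPM, −1.79. From the lowest ratio upward, H1f3 ranked 40, H1f4 76 and H1f2 108 among the 8711 genes. H1f0, the linker histone of resting and differentiated cells, was at 52.9 and 57.6 CPM, and its relative log2 ratio was 0.42 (0.12 on the CPM scale), within 1.5-fold. The transcripts of H1f4 and H2bc6 overlap on the same strand in the annotation, and reads from the shared stretch cannot be assigned to one of them.

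Among H2A genes, H2ac6 (45.4 against 17.8 CPM, −1.06), H2ac24 (195 against 99.4 CPM, −0.68), H2ac8 (98.2 against 50.8 CPM, −0.65) and H2ac20 (−0.61) were lower. H2ac18 was at 19.2 and 17.8 CPM, a relative log2 ratio of 0.18 that is −0.11 on the CPM scale. H2ac24 shares its coding sequence with H2ac23, and H2ac18 with H2ac19, so that these counts are uncertain between copies. Among H2B genes, H2bc6 was lower (28.2 against 11.7 CPM, −0.98), whereas H2bc4 was at 104 CPM in wild-type and 105 CPM in knockout cells. H2bc4 made most of the H2B sum, and its relative log2 ratio was 0.31 (0.02 on the CPM scale). H2bc4 and H2ac6 are neighbours that overlap on opposite strands over part of their length, and their ratios were unlike.

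Among H3 genes, H3c4 (38.7 against 13.6 CPM, −1.21) and H3c1 (−0.94) were lower, and H3c6 lay within 1.5-fold (19.8 against 11.2 CPM, −0.52). No measured H4 gene was lower by the relative rule. H4c4 stood at 67.4 and 40.3 CPM (−0.45), H4c8 at 15.6 and 9.30 CPM (−0.45) and H4f16 at 25.1 and 19.3 CPM (−0.08). On the CPM scale H3c6, H4c4 and H4c8 were lower by 1.5-fold or more. They also passed the relative limit in cells of 4000 to 10000 UMIs (−0.68, −0.62 and −0.71) and with each cell thinned to 2000 UMIs (−1.01, −0.60 and −0.69). Over the last 300 transcript bases, every 50-base word of H3c6, H2ac18 and H2ac24 occurs in another member, so that multimapping could move counts between copies. Such words made up more than 50% in 34 of the 73 members.

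The other 56 members stayed below 10 CPM in both libraries. Together they gave 92.6 CPM in wild-type and 49.0 CPM in knockout microglia, 6.05% and 6.65% of the family's UMIs. No UMI was seen in microglia of either library for 8 of them: H3c14, H1f9, H2ac12, H2bc1, H2ac1, H3c10, H2ac14 and H1f7. Another 6 had UMIs in 1 library only. Among the 59 members with a UMI in both, 21 were lower and 2 higher by 1.5-fold against the median of the 20594 genes with a UMI in both, of which 22.5% were lower and 23.5% higher. The median of the 59 was −0.37.

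**Figure D2:**
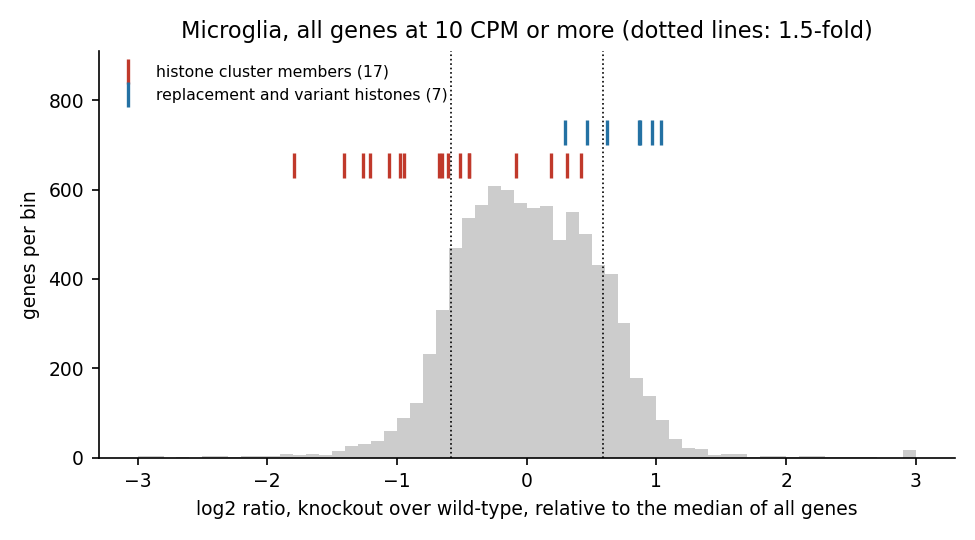
Distribution of the log2 ratio, knockout over wild-type, relative to the median, over the 8711 genes at 10 CPM or more in microglia, with genes beyond the axis placed in the end bins. Red ticks are the 17 histone members, of which 10 lie left of the lower dotted line (1.5-fold), and blue ticks the 7 measured replacement and variant histones, of which 5 lie right of the upper line.

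As sums, members with a stem-loop match were lower, and among those with no match H1f0 differed from the sum of the others. The 19 members annotated for 300 bases or more past the stem-loop summed to 1069 CPM in wild-type and 463 CPM in knockout microglia, a relative log2 ratio of −0.91. The 41 members annotated for fewer bases past it summed to 401 and 213 CPM, −0.61. The 10 members with no stem-loop match summed to 60.3 and 60.5 CPM, 0.30, and H1f0 made up most of that sum. The other 9 of them summed to 7.35 CPM (390 UMIs) and 2.83 CPM (109 UMIs), a relative log2 ratio of −1.08. H2bc24 gave 227 and 33 of these UMIs. H1f10, also among the 9, was higher in the knockout library, on few UMIs. It was at 0.320 CPM (17 UMIs) and 0.545 CPM (21 UMIs), a relative log2 ratio of 1.06 (0.07 to 2.08). The H2bc24 transcript whose stop codon was used for the search has 2 exons. No match there need not mean that the gene lacks the stem-loop. By position, the 56 members on chromosome 13 summed to 1402 and 626 CPM (−0.87). The 10 on chromosome 3 summed to 49.98 and 33.4 CPM (−0.28), and the 3 on chromosome 6, H4f16 among them, to 25.4 and 19.8 CPM (−0.06). Genes of the groups share annotation, class and cluster, so that these properties cannot be told apart.

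Replacement and variant histones, most of which are made outside S phase from polyadenylated mRNA, differed in the other direction. Of 7 measured, 5 were higher and none lower on the relative scale, with a median of 0.87, against 15.3% of all genes higher. On the CPM scale 2 were higher, against 4.65% of all genes, with a median of 0.57. H2aj had the highest ratio (57.2 against 95.3 CPM, 1.03) and Macroh2a1 the lowest (both 189 CPM, 0.30). H2az1, a variant of H2A at promoters, stood at 259 and 384 CPM (0.87), and H2ax, the variant phosphorylated at DNA breaks, at 11.1 and 16.6 CPM (0.87). The H3.3 genes H3f3b (7821 against 9791 CPM, 0.62) and H3f3a (567 against 636 CPM, 0.46) lay on either side of the limit.

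On the relative scale, where 12.2% of all genes were lower and 15.3% higher, few genes for factors that process histone mRNA or carry histones passed 1.5-fold. In the list for histone mRNA processing, 22 of 25 were measured, 2 were higher and 2 lower, with a median of −0.16, and on the CPM scale 9 were lower and none higher. Slbp, which binds the stem-loop, was at 81.4 and 72.8 CPM (0.14). Cstf3, a cleavage factor subunit, had the lowest ratio (28.0 against 12.6 CPM, −0.85), and Snrpb, a shared small nuclear ribonucleoprotein subunit, the highest (155 against 230.2 CPM, 0.86). Among 24 measured histone chaperones, 1 was higher, Ptma, which binds H1 (2036 against 2775 CPM, 0.74), and none was lower, Ubn2 having the lowest ratio (154 against 84.7 CPM, −0.57), and on the CPM scale 8 were lower. Of 26 S phase genes 8 were measured and none passed 1.5-fold on the relative scale, from Mcm7 (10.9 against 7.12 CPM, −0.32) to Tyms (13.97 against 16.6 CPM, 0.55), and Mcm7 was lower on the CPM scale, where 30.3% of all genes were (−0.62). Of 23 G2 and M phase genes Smc4 alone was measured (17.8 against 13.2 CPM, −0.13). Mki67 stood at 1.94 and 0.597 CPM and Top2a at 2.83 and 3.14 CPM, all below the limit.

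Fewer knockout microglia held a histone UMI at equal depth. After thinning each cell to 2000 UMIs, which left 4625 wild-type and 4388 knockout cells and left out 134 and 308 shallower ones, 87.4% of wild-type (86.4 to 88.3, exact binomial interval) and 68.0% of knockout cells (66.6 to 69.4) held a UMI of any member. Without thinning these shares were 97.96% and 88.6%. A UMI of any linker H1 gene was found in 68.3% and 37.9% of thinned cells, and one of any core histone in 68.4% and 51.8%. For H1f4 the shares were 48.1% (46.7 to 49.6) and 19.3% (18.1 to 20.5), for H1f2 33.0% and 14.2%, and for H1f3 9.10% and 2.37%. The cells holding H1f4 had a mean of 1.64 UMIs of it when wild-type and 1.23 when knockout. H1f0 was found in 9.21% and 10.4% of cells and H2bc4 in 16.2% and 17.6%. No cell type in these libraries is known to lack histone RNA. As a measure of free RNA, Ttr, a gene of the choroid plexus, had a UMI in 10 of 4759 wild-type and 438 of 4696 knockout microglia.

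Few microglia held RNA of Mki67, a marker of cycling cells, and they held a small part of the histone RNA. An Mki67 UMI was found in 72 wild-type microglia (median 14645 UMIs, against 6803 in the others) and in 14 knockout microglia (21440 against 5679). These cells held 3.39% (wild-type) and 1.35% (knockout) of the family's UMIs, and 2.77% and 0.789% of all UMIs. The family was at 1875 CPM in wild-type cells with Mki67 and 1521 CPM in those without, a fold of 1.23 (1.19 to 1.28). In the knockout library it was at 1257 and 733 CPM, a fold of 1.72 (1.55 to 1.90). Without the cells that held Mki67 or Top2a, the family was at 1519 CPM in wild-type and 731 CPM in knockout microglia.

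H1f5, encoding linker histone H1.5, was singled out after its values were seen, since it lay in few cells. It had 220 UMIs in 66 wild-type microglia, 65 of them in the cells with Mki67, which gave 44.3 against 3.01 CPM. In the knockout library it had 63 UMIs in 21 cells, 36 of them in the 14 cells with Mki67, which gave 118 against 0.707 CPM. The single highest cell held 57 of the 220 and 25 of the 63 UMIs. With each cell thinned to 2000 UMIs, H1f5 gave 14 UMIs in wild-type and 10 in knockout cells with Mki67, and 29 and 6 in the others. H1f1, also picked after its values were seen, showed folds of 2.45 (1.47 to 3.85) and 10.2 (3.62 to 23.3), and H2ac24 of 1.47 (1.33 to 1.63) and 2.68 (2.12 to 3.35). H1f4 showed folds of 1.25 (1.16 to 1.35) and 1.52 (1.14 to 1.98). For H2bc4 (0.995 and 1.16) and H1f0 (0.938 and 0.855) the intervals of the fold included 1 in both libraries.

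**Figure D3:**
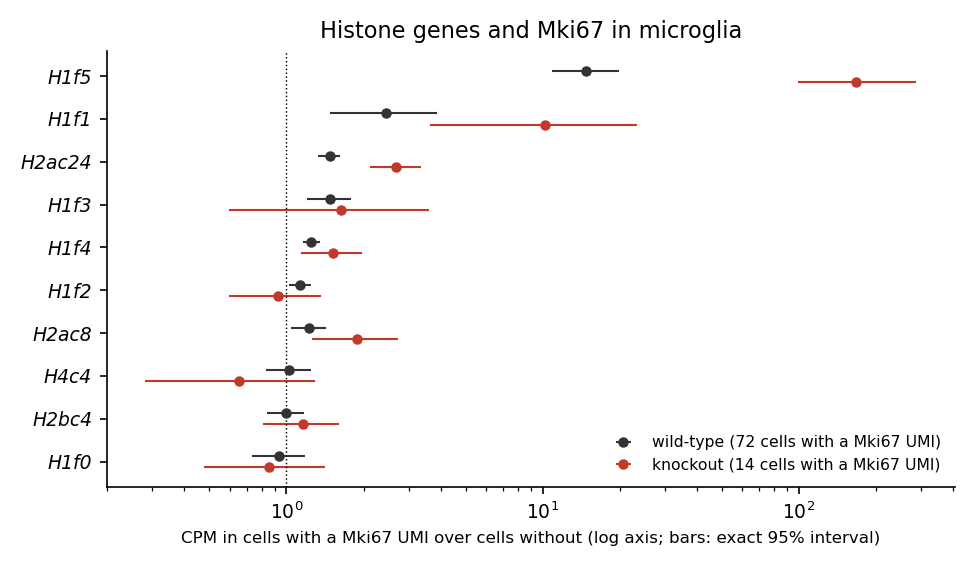
Fold of CPM in microglia with an Mki67 UMI over those without (log axis), per gene and library, with exact 95% conditional intervals; the dotted line marks equal levels. H1f5 lies far to the right in both libraries (14.7 and 168), while H2bc4 and H1f0 lie around 1.

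The difference between libraries was seen at every depth. In quartiles of UMIs per cell the family was at 1574, 1526, 1490 and 1541 CPM in wild-type cells and at 679, 680, 701 and 776 CPM in knockout cells, from the shallowest to the deepest. Each wild-type quartile lay above each knockout quartile. H1f4 went from 410 CPM in the shallowest to 388 CPM in the deepest wild-type quartile, and from 98.9 to 128 CPM in the knockout library. In depth bins shared by the libraries the wild-type direction turned, with H1f4 at 345 CPM under 3000 UMIs and 389 CPM at 12000 UMIs or more. The family in the knockout library likewise went from 827 to 788 CPM over these bins. H1f2 (220 to 264 and 62.1 to 89.5 CPM) and H2ac24 (166 to 209 and 67.3 to 114 CPM) were higher in the deepest quartile of both libraries. H4f16 (47.5 to 23.7 and 34.5 to 19.2 CPM), H2ac6 (65.0 to 45.3 and 35.4 to 16.3 CPM) and H2bc6 (42.0 to 26.7 and 17.7 to 11.5 CPM) were lower in it. In the same shared bins, the 237 wild-type cells under 3000 UMIs, with a median mitochondrial share of 3.16%, had 1366 CPM of core histones, against 776 CPM in the 1344 cells with 12000 UMIs or more. Linker H1 was at 726 and 766 CPM in the same bins, and in the knockout library core histones were at 568 and 497 CPM.

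**Figure D4:**
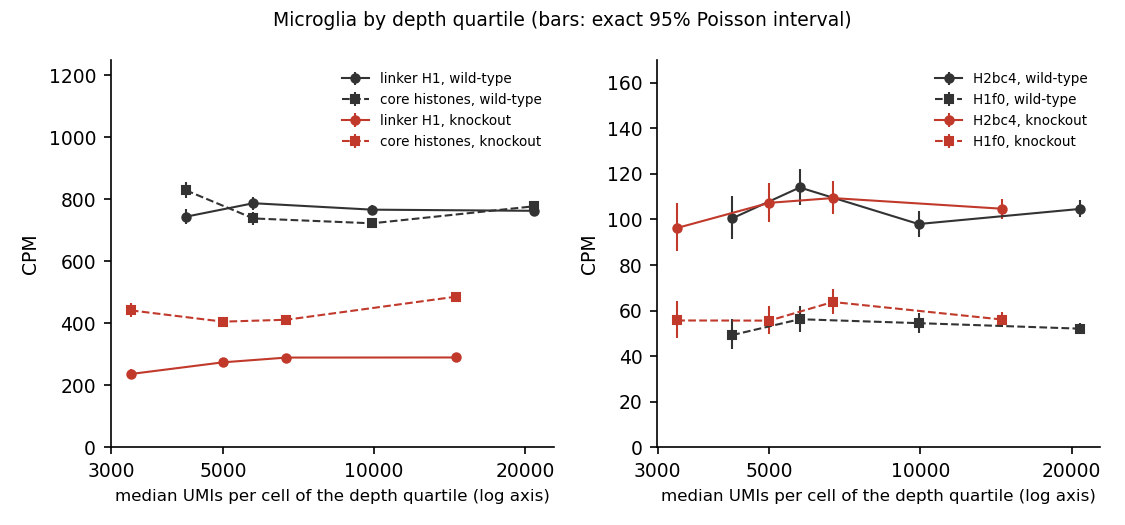
CPM in microglia by quartile of UMIs per cell, plotted at the median depth of each quartile (log axis), for linker H1 and core histone sums (left) and for H2bc4 and H1f0 (right), with exact 95% Poisson intervals. Both sums lie lower in the knockout library (red) at all depths, whereas the lines of H2bc4 and of H1f0 run close together.

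In monocytes too, linker H1 RNA was lower in the knockout library, on few wild-type cells. Monocytes were gated by Ace or Ly6c2 and numbered 43 in the wild-type library, at a median of 7406 UMIs, and 530 in the knockout library, at 5545.5 UMIs. Linker H1 genes were at 537 CPM (461 to 622) and 208 CPM (192 to 224), and core histones at 288 CPM (233 to 352) and 240 CPM (223 to 257). The median log2 ratio of genes at 100 CPM or more lay between −0.10 and 0.00 in these smaller gates, so values here are on the CPM scale. The libraries differed in the kind of monocyte, with 18 and 345 cells higher in Ace, the patrolling kind, and 25 and 166 higher in Ly6c2, the classical kind. In cells higher in Ace linker H1 was at 448 and 152 CPM and core histones at 263 and 160 CPM. In cells higher in Ly6c2 linker H1 was at 577 and 286 CPM, whereas core histones were at 300 CPM (233 to 380) and 350 CPM (318 to 383), with overlapping intervals.

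In monocytes H1f4 was at 261 CPM (86 UMIs) in wild-type cells and 74.5 CPM (241 UMIs) in knockout cells. H1f2 was at 155 and 72.0 CPM, but 22 of its 51 wild-type UMIs lay in 1 cell, without which it was at 90.7 CPM. H1f5 was at 60.7 CPM (20 UMIs in 12 cells) and 10.2 CPM (33 UMIs in 25 cells). H1f0 was at 48.5 and 46.1 CPM and H2bc4 at 30.3 and 35.2 CPM, but the kinds of monocyte went opposite ways. In cells higher in Ace H1f0 was at 68.2 and 36.2 CPM and H2bc4 at 29.2 and 13.7 CPM. In cells higher in Ly6c2 H1f0 was at 39.6 and 61.1 CPM and H2bc4 at 30.8 and 67.2 CPM. Wild-type UMIs were few, from 3 (H2bc4, Ace) to 9 (H1f0, Ly6c2). Neutrophil markers moved with the library, with 63.7 CPM over 1 of 5 markers detected in wild-type monocytes (S100a8, S100a9, Ly6g and Retnlg at 0) and 512 CPM over 5 of 5 in knockout monocytes. Their part in the result was not tested. Of 2103 Ttr UMIs in knockout monocytes, 2044 lay in 1 cell, and without it the family was at 448 CPM.

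In border macrophages, the Mrc1-positive cells of meninges and vessels, the summed family differed by less than counting error. Linker genes other than H1f0 and H1f10 summed lower in the knockout library, but not each of them was lower. The 29 wild-type cells (median 4358 UMIs) gave 806 CPM (659 to 976) and the 83 knockout cells (4201 UMIs) 809 CPM (716 to 911). Linker H1 was at 445 CPM (58 UMIs) and 391 CPM (132 UMIs), and core histones at 361 and 418 CPM. Without H1f0 and H1f10, linker H1 was at 407 CPM (53 UMIs) and 264 CPM (89 UMIs), a log2 ratio of −0.62 (−1.13 to −0.11) on the CPM scale. H1f4 was at 184 CPM (24 UMIs) and 83.0 CPM (28 UMIs), 2.22-fold lower. H1f2 (69.1 CPM, 9 UMIs, and 145 CPM, 49 UMIs) and H1f3 (7.68 CPM, 1 UMI, and 23.7 CPM, 8 UMIs) were higher in the knockout library. H1f5 had 19 of the 53 wild-type UMIs, in 3 cells and 11 of them in 1 cell, and 4 UMIs in 4 knockout cells. The lower sum thus leaned on those 3 wild-type cells. H1f0 was at 38.4 CPM (5 UMIs) and 127 CPM (43 UMIs). With 3 or more Mrc1 UMIs and no P2ry12 UMI, 8 wild-type cells with 9 histone UMIs gave 232 CPM (106 to 440) and 37 knockout cells 628 CPM (510 to 767), so that the wild-type level in this gate rests on few cells.

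**Figure D5:**
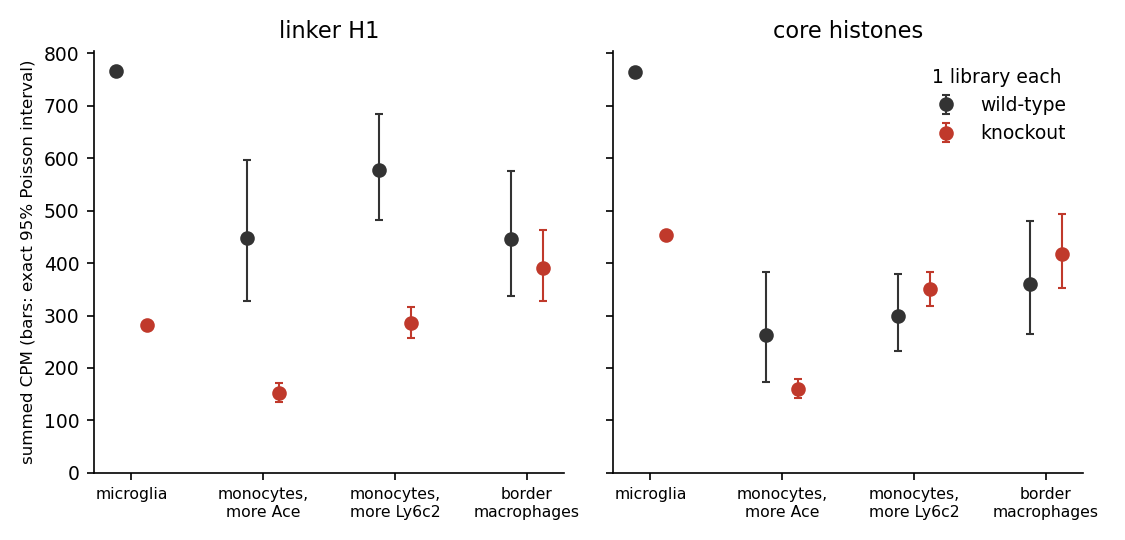
Summed CPM of linker H1 genes (left) and core histone genes (right) in microglia, in monocytes by the gate gene that is higher, and in border macrophages, for the wild-type (black) and knockout (red) library, with exact 95% Poisson intervals. Linker H1 intervals do not overlap in microglia and both kinds of monocyte, and they do overlap in border macrophages.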

How the data were processed

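The authors deposited UMI counts as whole numbers for each gene in each barcode. The counts came from Cell Ranger 7.0.0, per the file headers, while the labels' protocols name version 6.0. The build was GRCm39, per the labels' protocols. The annotation and the handling of introns and strand were not given in the sources used here. Gates required 2 or more UMIs of the gate gene and at most 1 of the others, and cells with 2 or more summed UMIs of lymphoid or Ly6g markers were left out. No doublet caller was run. CPM were computed from counts summed per gate and library, so cells are not replicates. With 1 library per genotype no test was made, and genes were called by size at 1.5-fold. Named genes are the members that reach 10 CPM in microglia of either library, the highest and lowest ratio of each other list, and Msn, Mki67, Top2a, Slbp, H3f3a, H3f3b, H2az1 and H2ax. H1f5, H1f1, H1f10, H2bc24, H4c3, H4c14, Neat1, Malat1 and Ttr lie outside this rule and were chosen after their values were seen. Members and lists were chosen with earlier results of these data known. Ratios were tested on simulated data with Python 3.11.15, numpy 2.4.6 and scipy 1.17.1. Alternatives varied gates, filters, depth and scaling.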

Additional observations from a re-analysis of the deposited data

Results flagged for a closer look

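In border macrophages H2ac24 had a log2 ratio of knockout over wild-type of 1.67 (4 against 33 UMIs) and H1f2 one of 1.07 (9 against 49 UMIs), opposite in sign to microglia, where they were −0.97 and −1.55 on the CPM scale. The intervals, which cover counting error only, were 0.18 to 3.63 and 0.03 to 2.28. These were 2 of 146 comparisons of a member in monocytes or border macrophages with microglia, and the difference between the cell types was not tested. The 146 took monocytes together. In monocytes higher in Ly6c2, H2ac8 (4 against 64 UMIs) had a log2 ratio of 1.47 (0.04 to 3.39), against −0.95 in microglia. In monocytes higher in Ace it was −0.73 (−2.41 to 1.62, 3 against 32 UMIs). In the wild-type library only 21 of the 73 members had a UMI in monocytes and 20 in border macrophages. Most of the 146 therefore had no ratio and could not be flagged. In the knockout library 1 cell held 11 of the 33 H2ac24 UMIs.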

How the results depend on the processing

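No paired analysis was possible because each genotype has 1 library. The family stood at 1514 CPM in wild-type cells without a gate, 1547 CPM as a mean of per-cell CPM, 1497 CPM in cells of 4000 to 10000 UMIs and 1519 CPM without cells holding Mki67 or Top2a. In knockout microglia it stood at 722 CPM with 5 or more P2ry12 UMIs and no Mrc1, Ace or Ly6c2 UMI, 707 CPM as a mean of per-cell CPM, 689 CPM in cells of 4000 to 10000 UMIs, 722 CPM after thinning and 719 CPM without the deepest 6% of cells. The median relative log2 ratio of the measured members was −0.71 in that stricter gate, −0.57 without a gate, −0.82 as a mean of per-cell CPM, −0.88 in cells of 4000 to 10000 UMIs and −0.80 after thinning. On the CPM scale it was −0.95. It was −0.73 and −0.49 relative to genes at 30 CPM or more and to all genes with a UMI, and −0.37 with no filter beyond 1 UMI in each library. In that last setting 21 of 59 members were lower and 2 higher (22.5% and 23.5% of all 20594 genes). At 2-fold 5 members were lower (2.65% of all genes). Chosen after seeing the data, a mean of 10 CPM over the libraries left 16 members, 9 of them lower (12.1% of all genes). In monocytes the family was at 933 CPM (wild-type) and 473 CPM (knockout) in the stricter gate, and 400.4 CPM in thinned knockout cells. An alternative also chosen after seeing the data left out cells rich in Ttr or Cldn5. Wild-type monocytes held no UMI of either gene, so their value of 825 CPM could not change. In border macrophages the family was at 683 CPM (knockout) in the looser gate, and 232 and 628 CPM in the stricter one. H1f4 was found in 79.8% and 44.5% of cells unthinned and in 68.5% and 32.4% at 4000 UMIs. The fold in cells with Mki67 was 1.38 and 2.48 after thinning. The fold of the deepest over the shallowest cells, 0.979 and 1.14 by quartile, was 0.737 and 0.953 in shared depth bins, which turned the direction in the knockout library. Of 288 values for single members, 261 kept their call, 13 passed the limit anew, 14 no longer passed it and none of the called ones changed sign. Counting error is small in microglia and wide in the 43 and 29 wild-type cells of the other gates, and variation between mice could not be measured.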
